A study of Mus musculus with 6 samples.

Results

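The Sprouty genes (Spry1, Spry2 and Spry4), the Spred genes (Spred1 and Spred2), the dual-specificity phosphatase genes Dusp1, Dusp4 and Dusp6 and the ETS factor genes Etv4 and Etv5 were taken by symbol from the 23038 genes listed for each library, and all 10 were found. They were listed as transcriptional readouts and feedback inhibitors of ERK signalling, at a time when earlier results of these data were known. The libraries came from mouse primary oligodendrocyte precursor cells (mOPCs) purified from embryos by immunopanning and cultured. The 3 siNC libraries came from cells given control siRNA, and the 3 siQk libraries from cells given siRNA for Qk, the gene of the Quaking RNA-binding proteins Qki5, Qki6 and Qki7. All cells were collected 72 h after transfection. The authors used 3 different siRNAs for Qk, and which library received which is not given in the sources used here. A spread among siQk libraries thus cannot be told apart from a spread among siRNAs. The labels call the cultures biological replicates, and whether they came from separate litters is not given either, so that p-values measure the spread between these cultures.

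ERK is the last kinase of the Ras, Raf and MEK cascade that growth factor receptors switch on. In the OPC lineage, PDGF and FGF act through it, and it is known for roles in precursor proliferation and in oligodendrocyte differentiation and myelin growth. Active ERK switches on genes whose products dampen it again. Sprouty proteins act between the receptors and Ras, Spred proteins bring neurofibromin to Ras, and Dusp4 and Dusp6 remove phosphates from ERK. Etv4 and Etv5 are transcription factors of the PEA3 group whose transcription is a common readout of FGF and ERK signalling.

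The library totals ranged from 58166490 to 141045937 tags, and siNC replicate 1 was the smallest. The ribosomal RNA gene Rn45s took 3.11% of its tags and 0.169% to 0.389% of those of each other library. Qk itself had a level of 193 ± 25.9 RPKM (SD, n = 3) in siNC libraries, which fell to 54.7 ± 20.4 RPKM (SD, n = 3) after KD (log2 fold change -1.98, edgeR FDR 0.00311). RPKM is the tag number divided by exon length and library total. The lineage genes Olig2 and Sox10 ranged from 124 to 251 RPKM over the 6 libraries, as the label mOPC calls for, and the 9 fibroblast and vascular markers did not exceed 0.148 RPKM. The oligodendrocyte gene Cnp was also high, at 875 ± 192 RPKM in siNC, so that the cultures held transcripts of later stages too. In bulk RNA, fewer cells of a type and less RNA per cell cannot be told apart.

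After Qk KD, Spry4, Etv5, Dusp6 and Spry1 rose and Spred1 fell, while Spry2, Spred2, Dusp1, Dusp4 and Etv4 did not pass the test. The call needed P below 0.01 together with FDR below 0.1 by the quasi-likelihood test of edgeR, run over the 12505 genes whose average logCPM exceeded 0, which included all 10 genes. Thus 5 of 10 were called, against 31.0% of all tested genes. Of the 10 genes, 4 were called higher, against 13.8% of tested genes, and 1 was called lower, against 17.2%. The log2 fold changes of the 10 genes had a median of 0.30, where all tested genes had one of 0.01. The log2 fold change was positive for 8 of the 10, and for 51.2% of all tested genes. With libraries scaled by size only, the median of all tested genes moved to 0.16 and that of the 10 genes to 0.47, and the 4 genes called higher were again 4 while Spred1 lost its call.

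**Figure D1:**
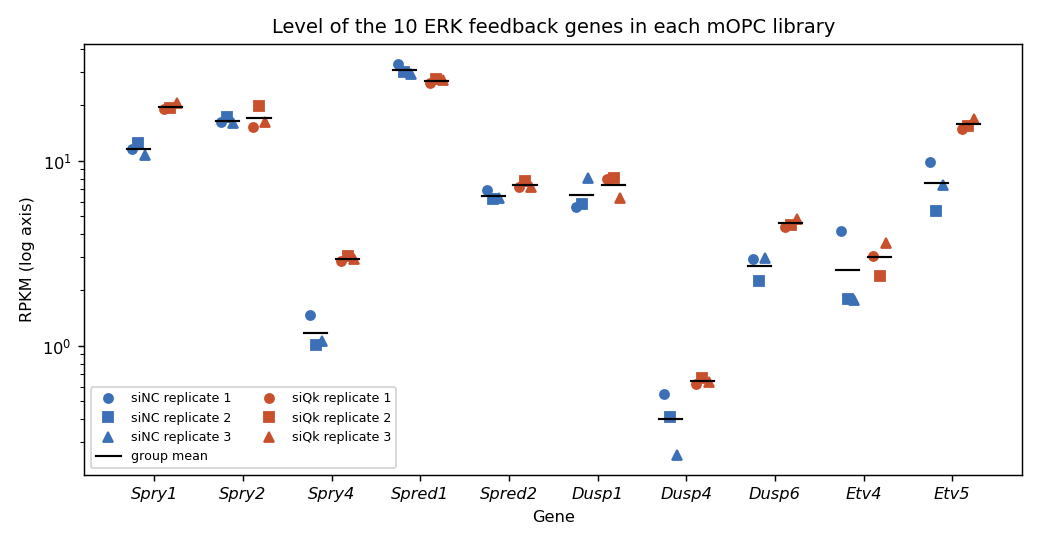
RPKM (log axis) of the 10 genes in each library, with siNC in blue, siQk in red, a symbol for each replicate and a bar for the group mean. The siQk values of Spry1, Spry4, Dusp6 and Etv5 lie above all their siNC values, and so do those of Spred2 and Dusp4, which were not called. Those of Spred1 lie below, while those of Spry2, Dusp1 and Etv4 overlap with siNC. By RPKM, 41.9% of all tested genes lie above in this way and 16.4% below.

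Spry1, Spry2 and Spry4 encode adaptor-like proteins that are phosphorylated after receptor activation and then hold back the signal to Ras. Spry4 had the largest change of the 10 genes. It was at 1.46, 1.005 and 1.06 RPKM in siNC replicates 1 to 3 and at 2.87, 3.05 and 2.94 RPKM in the siQk replicates. The siQk libraries were close to each other and the lowest of them was above the highest siNC library. Spry4 rose by a log2 fold change of 1.18 (SE 0.18, edgeR FDR 0.00427), which is a 2.26-fold higher level, and 1.88% of all tested genes had a higher log2 fold change. In the mm10 build, the minus-strand gene Spry4 spans chromosome 18 from 38586247 to 38601415.

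Spry1 was at 11.5, 12.5 and 10.7 RPKM in the siNC libraries and at 19.0, 19.2 and 20.4 RPKM in the siQk libraries. No siNC value came near the siQk values. Spry1 rose by 0.60 on the log2 scale (SE 0.09, edgeR FDR 0.00404), with a 95% interval from 0.38 to 0.81. Spry1 lies on chromosome 3 from 37639947 to 37644598, on the plus strand. A gene model of unknown coding status on the other strand, Gm42922, overlaps 710 bases of its exons, and since the library kit does not mark strand, reads of the 2 cannot be told apart there.

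Spry2 was at 16.1, 17.2 and 15.9 RPKM in siNC and at 15.3, 19.6 and 16.2 RPKM in siQk. The siQk libraries surround the siNC libraries, with replicate 2 high and replicate 1 low. The log2 fold change was -0.10 with a 95% interval from -0.35 to 0.15 (FDR 0.487), and its sign changed to 0.055 with library size only. Spry2 lies on chromosome 14 from 105891947 to 105896819, on the minus strand. In siNC, Spry2 was the highest of the 3 Sprouty transcripts in each library, whereas in siQk Spry1 was above Spry2 in replicates 1 and 3 and just below it in replicate 2. The ratio of Spry1 to Spry2 within a library, which no scaling of libraries can move, was 0.707 ± 0.029 in siNC and 1.16 ± 0.158 in siQk (SD, n = 3 each). The summed level of the 3 Sprouty genes was 29.2 ± 1.53 RPKM in siNC and 39.5 ± 2.35 RPKM in siQk.

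Spred1 and Spred2 carry the cysteine-rich Sprouty domain together with a domain that binds neurofibromin, the Ras inhibitor made by Nf1. Spred1 was the most abundant of the 10 genes per length in both groups. It was at 33.4, 30.04 and 29.5 RPKM in siNC and at 26.1, 27.7 and 27.2 RPKM in siQk. All siQk values were below all siNC values, by a small margin. Its log2 fold change was -0.35 (SE 0.09, edgeR FDR 0.0238), that is 0.783 of the siNC level. This call was lost with library size only (-0.20), with upper quartile factors (-0.29), with the replicate block (-0.35) and without any 1 of the 3 siQk libraries. Spred1 lies on chromosome 2 from 117121374 to 117182279, on the plus strand.

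Spred2 was at 6.91, 6.23 and 6.28 RPKM in siNC and at 7.16, 7.78 and 7.21 RPKM in siQk. The RPKM ranges did not overlap, but RPKM carries no TMM factor, and after TMM scaling the 2 groups overlapped. The log2 fold change was 0.035 with a 95% interval from -0.19 to 0.26 (FDR 0.786). The ratio of Spred2 to Spred1 within a library was 0.209 ± 0.0035 in siNC and 0.273 ± 0.0083 in siQk (SD, n = 3 each). This pair was chosen after its values had been seen, and its ratio was higher in every siQk library than in every siNC library. The sum of the 2 Spred transcripts was 37.4 ± 2.52 RPKM in siNC and 34.4 ± 1.09 RPKM in siQk. Spred2 lies on chromosome 11 from 19924375 to 20024026, on the plus strand.

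The 3 phosphatases differ in where and when they act. Dusp6 is a cytoplasmic enzyme specific to ERK, Dusp4 is nuclear, and Dusp1 is a nuclear enzyme that also acts on JNK and p38 and is made as an immediate early gene. Dusp6 was at 2.94, 2.22 and 2.96 RPKM in siNC and at 4.403, 4.51 and 4.84 RPKM in siQk. Each siQk library was above each siNC library. Dusp6 rose by 0.61 on the log2 scale (SE 0.14, edgeR FDR 0.0186). Without siQk replicate 1, 2 or 3 the log2 fold changes were 0.63, 0.63 and 0.56, and P no longer passed 0.01. Without siNC replicate 1, 2 or 3, Dusp6 was still called (edgeR FDR 0.0202, 0.0220 and 0.0317).

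Dusp4 was the least abundant of the 10 genes, at 0.545, 0.409 and 0.256 RPKM in siNC and at 0.622, 0.673 and 0.635 RPKM in siQk, from 77 to 213 tags per library. The siNC libraries were spread widely and the siQk libraries were close together. The log2 fold change was 0.54 with a 95% interval from -0.18 to 1.25 (FDR 0.201), an interval that includes the changes of Dusp6 and Spry4. Leaving out 1 library gave values from 0.26 (without siNC replicate 3) to 0.84 (without siNC replicate 1).

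Dusp1 was at 5.62, 5.84 and 8.04 RPKM in siNC and at 7.90, 8.09 and 6.24 RPKM in siQk. The high siNC library reached the siQk values and the low siQk library reached the siNC values. The log2 fold change was 0.041 with a 95% interval from -0.32 to 0.40 (FDR 0.846). Dusp1 lies on chromosome 17 from 26505590 to 26562128, on the minus strand, where 11 exon bases overlap the plus-strand gene Ergic1. Dusp6 lies on chromosome 10 from 99263231 to 99267489, and Dusp4 on chromosome 8 from 34807297 to 34819894, both on the plus strand. The ratio of Dusp6 to Dusp1 was 0.425 ± 0.0865 in siNC and 0.630 ± 0.126 in siQk, with siQk replicate 3 at 0.775 and all siQk values above all siNC values.

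Etv5 was at 9.85, 5.33 and 7.42 RPKM in siNC and at 14.8, 15.4 and 16.8 RPKM in siQk. The siNC libraries were spread over 5.33 to 9.85 RPKM, but none reached the siQk range. Etv5 rose by 0.90 on the log2 scale (SE 0.23, edgeR FDR 0.0235), which is a 1.86-fold higher level, and 3.31% of all tested genes had a higher value. It was called with all 6 libraries, and not without siNC replicate 3 (0.86) or without siQk replicate 1, 2 or 3 (0.94, 0.92 and 0.84). Etv5 lies on chromosome 16 from 22381309 to 22439719, on the minus strand.

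Etv4, the close relative of Etv5, was at 4.15, 1.78 and 1.77 RPKM in siNC and at 3.06, 2.37 and 3.58 RPKM in siQk. One siNC library, replicate 1, stood above all others, and the other 2 stood below all siQk libraries. The log2 fold change was 0.064 with a 95% interval from -0.86 to 0.99 (FDR 0.908). Without siNC replicate 1 it was 0.65 (FDR 0.0551), and it was not called there either. Etv4 lies on chromosome 11 from 101769742 to 101785371, on the minus strand. The ratio of Etv5 to Etv4 was 3.19 ± 0.933 in siNC and 5.35 ± 1.01 in siQk.

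**Figure D2:**
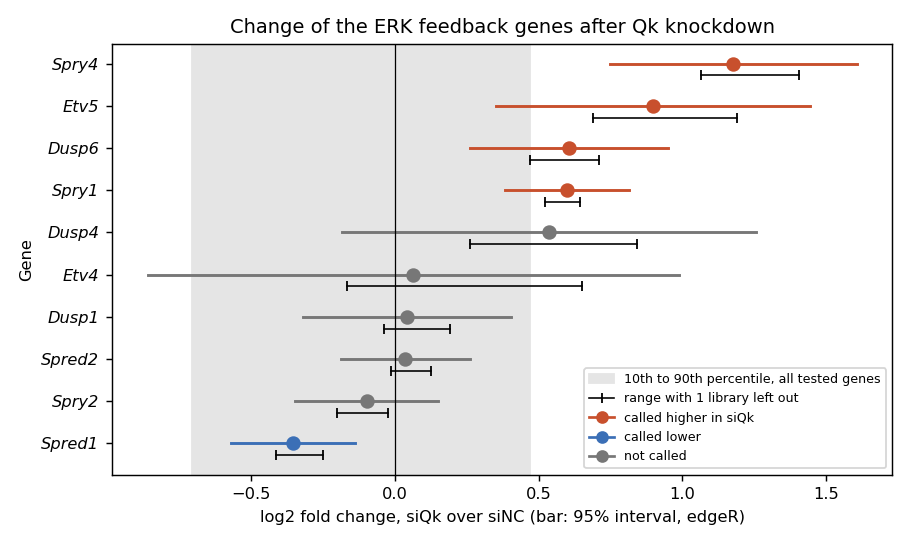
Log2 fold change of each gene (siQk over siNC) with its 95% interval from edgeR, coloured by call, and below it in black the range over the 6 fits that each left out 1 library. The grey band spans the 10th to the 90th percentile of all tested genes, from -0.71 to 0.47, and the points of Spry4, Etv5, Dusp6, Spry1 and Dusp4 lie to its right.

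The order of levels was much the same in both groups. In siNC it was Spred1, Spry2, Spry1, Etv5, Dusp1, Spred2, Dusp6, Etv4, Spry4 and Dusp4, where the library ranges of Etv5 and Dusp1, of Dusp1 and Spred2, and of Dusp6 and Etv4 overlapped. In siQk, Spry1 took the place above Spry2, and Etv5 at 15.7 ± 1.01 RPKM (SD, n = 3) stood apart from Dusp1 at 7.41 ± 1.02 RPKM. The neighbours with overlapping ranges there were Spry1 and Spry2, Spry2 and Etv5, Dusp1 and Spred2, and Etv4 and Spry4. The levels thus ran from 0.403 RPKM (Dusp4) to 31.0 RPKM (Spred1) as means in siNC.

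**Figure D3:**
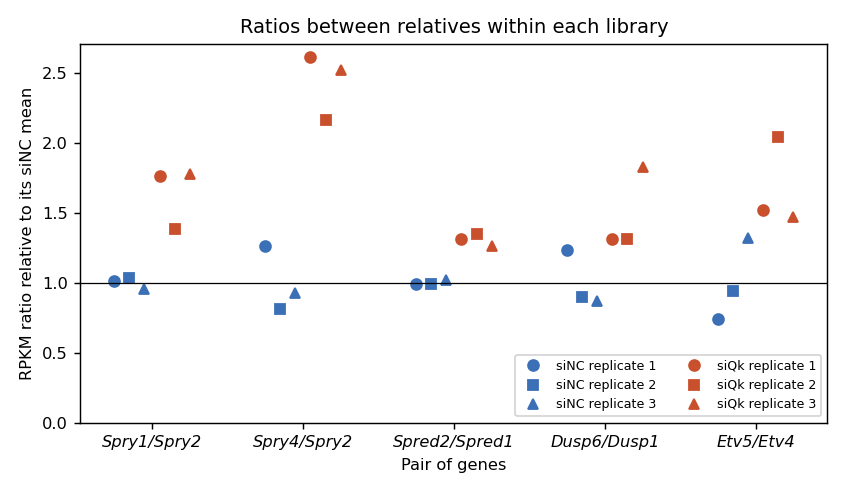
RPKM of a gene divided by that of its relative in the same library, relative to the siNC mean of that ratio, for 5 pairs of genes. In each pair the 3 siQk points lie above the 3 siNC points, with the smallest rise for Spred2/Spred1, by 1.31-fold, and the largest for Spry4/Spry2, by 2.43-fold.

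The 5 ratios were chosen after the values of the genes had been seen, and they are given as a description, with no test. For Spry4 to Spry2 the ratio was 0.0719 ± 0.0167 in siNC and 0.175 ± 0.0171 in siQk (SD, n = 3 each). Groups that do not overlap are frequent in these data: the RPKM of all siQk libraries was above that of all siNC libraries for 41.9% of tested genes and below it for 16.4%. With TMM-scaled CPM the shares were 27.8% and 26.5%. By RPKM, siQk was above siNC without overlap for 6 of the 10 genes and below it for 1. By TMM-scaled CPM, 4 were above and 1 was below, and these were the 5 genes that edgeR called.

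Many of the genes were high in the same siNC library. After TMM scaling, siNC replicate 1 was the highest siNC library for 8 of the 10 genes (all but Spry1 and Dusp1), while it was the highest for 32.0% of all tested genes. Etv4 in that library was 2.54 times the mean of the other 2, Dusp4 1.77 times, Etv5 1.68 times and Spry4 1.53 times. This is the library with the low total and the high share of Rn45s, whose part in these levels was not tested. With Rn45s left out of the counts, 4 of the genes were again called higher and 1 lower. Without the whole library, their log2 fold changes had a median of 0.64 and again 4 were higher and 1 lower. In siQk, replicate 1 was the lowest library for 7 of the 10 genes, against 27.8% of tested genes. It was the highest for 0 of them, against 28.5% of tested genes. For Spry2 the TMM-scaled CPM was 30.3 there, against 38.4 and 32.4 in siQk replicates 2 and 3.

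**Figure D4:**
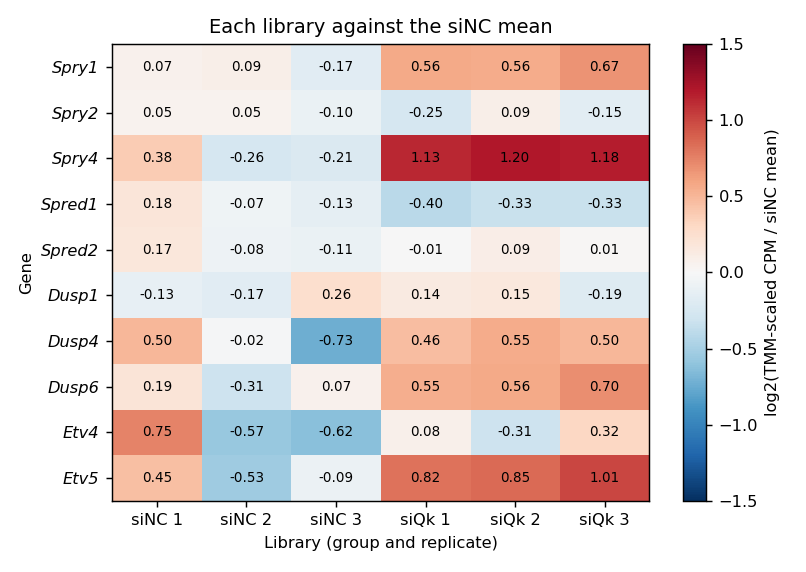
Each cell gives the log2 of the TMM-scaled CPM of a gene in a library over its siNC mean. The siNC replicate 1 column is raised for Etv4 (0.75), Dusp4 (0.50), Etv5 (0.45) and Spry4 (0.38), and all 3 siQk columns are raised for Spry1, Spry4, Dusp6 and Etv5 and also for Dusp4 (0.46 to 0.55), which was not called.

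The genes whose pattern over the 6 libraries was most like that of Spry1, the gene called higher with the lowest P, were Fstl4, Raver1-fdx1l and Bcl7a, with Pearson's r of log2 CPM of 0.998, 0.996 and 0.996. For Spred1, the gene called lower, they were Smox, Gjc3 and Trappc2l, with r of 0.996, 0.995 and 0.993. These values describe 6 libraries of 2 groups that share their depth and group differences, and 65 genes had an r over 0.98 with Spry1.

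Sequence around the start of transcription was available for 7 of the 10 genes as promoters from RefSeq (GRCm38.p6), from 250 bases before to 50 bases after the annotated start, and Spry4, Dusp4 and Etv4 were not among them. They were searched on both strands for 4 motifs of factors that act downstream of kinase cascades. The octamer of Capicua, a repressor that ERK relieves, was searched as TGAATGAA, TGAATGGA, TCAATGAA and TCAATGGA, and 3.84% of the 32851 promoters hold one. The cAMP response element TGACGTCA is in 1.79% of promoters, the ETS site CCGGAAGT in 3.89% and 1 spelling of the serum response element in 0.0639%. Dusp6, which rose, holds the Capicua octamer in 2 places that flank its start, and Spry2, which was not called, holds it in 1. Dusp1 holds 1 cAMP response element. The sites are shown because they are the only matches in the 7 genes, with the motif in capitals as it reads on the gene's own strand.
Dusp6, chr10:99263196-99263225, plus strand: gagagaatgtaTCCATTGAgacgctggctg
Dusp6, chr10:99263221-99263250, plus strand: ggctgtttgtaTCCATTGAggagctgcctc
Spry2, chr14:105896855-105896884, minus strand: tcggcctcttgTTCATTGAgaaaaaaaaaa
Dusp1, chr17:26508597-26508626, minus strand: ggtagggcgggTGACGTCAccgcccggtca
The windows of Spry1, Spred1, Spred2 and Etv5 hold none of these letters. A match is a description of the sequence, and no binding was measured here.

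Qki proteins bind RNA at ACUAAC or ACUAAU. In the longest 3' untranslated region (3'UTR) that GENCODE M21 gives for each gene, on the sense strand, this hexamer occurs 3 times in Spry4, 2 times in Spred2, once in each of Spry2, Dusp6 and Etv5, and not in Spry1, Spred1, Dusp1, Dusp4 and Etv4. Thus 5 of the 10 genes hold it, against 36.1% of 10819 tested genes with a 3'UTR of at least 50 nt. Of 3'UTRs within 1.5 times the length of that of Spry4 (3559 nt), 14.2% hold as many. For Dusp6 the share was 30.7%, for Etv5 48.7%, and for the uncalled genes Spry2 and Spred2 23.4% and 23.2%. The only gene of the 10 called lower, Spred1, has none in 4330 nt, and 70.6% of 3'UTRs of like length have at least 1. The sites of Dusp6, Etv5, Spry2 and Spred2 are shown, with the hexamer in capitals, and the sequences of those of Spry4 are not reported here.
Dusp6, chr10:99266650-99266679, plus strand: guugcaucuggaACUAACuauauauauugu
Etv5, chr16:22382412-22382441, minus strand: uucuccaugcucACUAACucuccuucucug
Spry2, chr14:105892277-105892306, minus strand: acaaaauauuauACUAAUauguuguacauu
Spred2, chr11:20022045-20022074, plus strand: augaauuaauucACUAAUgcaaaacaauca
Spred2, chr11:20023384-20023413, plus strand: accaagcacaacACUAAUccuguuuccuua
Genes called higher (Spry4, Dusp6 and Etv5) and genes not called (Spry2 and Spred2) hold the hexamer, and so do 27.1% of all genes called higher, 53.3% of those called lower and 33.6% of those not called. The median 3'UTR lengths of these 3 sets were 1164, 1578 and 1258 nt, and their part in these shares was not tested.

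The other genes of the pathway were taken from 8 lists with 86 genes, of which 74 were tested, 9 were called higher and 22 lower, against 13.8% and 17.2% of all tested genes. Of the nearest relatives, Spred3, Etv1 and Il17rd, which encodes a membrane-bound inhibitor of FGF signalling, rose, and Spry3 was not called. Spred3 went from 3.84 ± 0.292 to 6.46 ± 0.253 RPKM (log2 fold change 0.60), Etv1 from 15.3 ± 1.96 to 23.1 ± 2.37 RPKM (0.45) and Il17rd from 0.398 ± 0.069 to 0.777 ± 0.0847 RPKM (0.81). All SDs are over 3 libraries. Together with the 3 Sprouty, 2 Spred and 2 Etv genes above, the called ones of these families were higher except Spred1.

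The counts of the following lists stand beside 13.8% of all tested genes called higher and 17.2% called lower. Of the 7 other MAP kinase phosphatases, 5 were tested and Dusp5, a nuclear phosphatase of ERK, was the only one called. It rose from 1.29 ± 0.149 to 2.38 ± 0.425 RPKM (log2 fold change 0.73, edgeR FDR 0.0311). Of the 10 further genes that ERK is known to raise, 6 were tested. Myc rose from 16.4 ± 2.76 to 33.5 ± 7.18 RPKM (log2 fold change 0.88), and Errfi1, a feedback inhibitor of the EGF receptor, fell from 7.85 ± 0.597 to 6.26 ± 0.698 RPKM (-0.48). Phlda1, Ccnd1, Epha4 and Fosl1 were not called. Of the 8 immediate early genes, which growth factors switch on within minutes, 6 were tested and 0 were called higher by edgeR, DESeq2 or limma-voom (0 at an unadjusted edgeR p below 0.05). Fos fell from 79.1 ± 12.1 to 49.6 ± 8.71 RPKM (log2 fold change -0.82, FDR 0.00753) and Jun had a log2 fold change of -0.38 (FDR 0.0166), both from the same edgeR test. Egr1 was not called, with 8.25 ± 2.29 and 13.4 ± 4.07 RPKM (log2 fold change 0.55, 95% interval from -0.021 to 1.13).

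**Figure D5:**
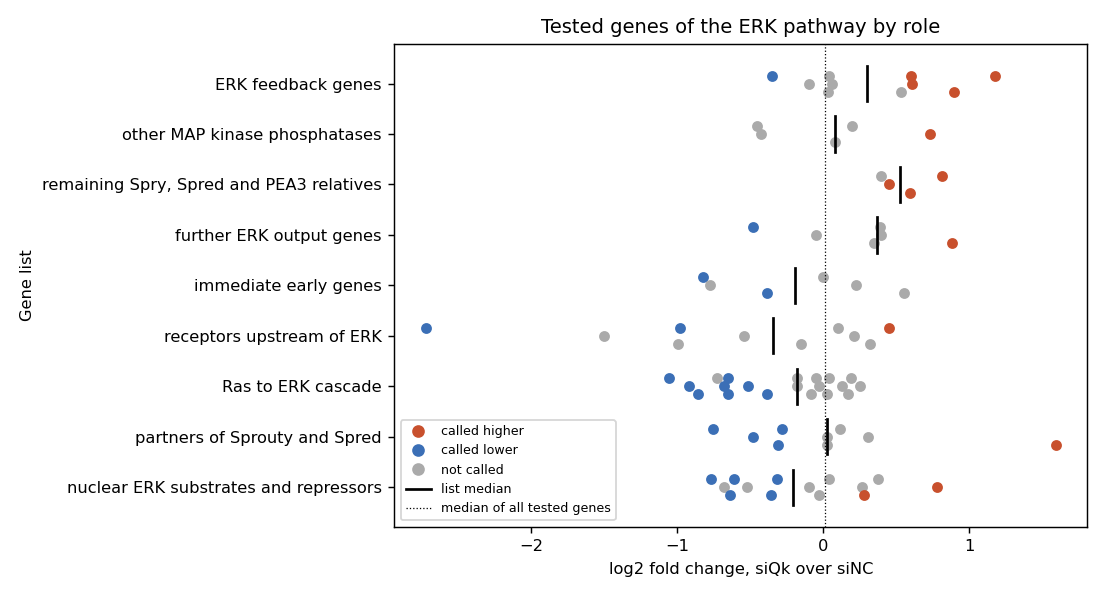
Log2 fold change (siQk over siNC) of the tested genes of the ERK pathway, 1 row per list, with called genes in colour and the list median as a bar. The medians of the feedback genes (0.30), their relatives (0.52) and further output genes (0.37) lie right of the median of all tested genes, and those of the immediate early genes (-0.19), the receptors (-0.34), the Ras to ERK cascade (-0.18) and the nuclear substrates and repressors (-0.21) lie left of it.

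Upstream of the feedback genes, the cascade itself mostly fell or was not called. Of 20 cascade genes, 8 were called lower and 0 higher by edgeR, against 17.2% and 13.8% of all tested genes, and 2 were higher at an unadjusted p below 0.05. Mapk3, which encodes ERK1, fell from 122 ± 15.4 to 71.7 ± 10.5 RPKM (log2 fold change -0.92). Map2k1, which encodes MEK1, fell by 0.65 on the log2 scale, Nras fell by 1.05 and the Ras activator Sos2 fell by 0.86. Over the other fits, 7 to 10 cascade genes were called lower and 0 to 2 higher. Of 13 receptors, 10 were tested. Fgfr1 rose from 15.4 ± 1.24 to 23.3 ± 1.65 RPKM (log2 fold change 0.45), and Ntrk2 fell from 57.5 ± 6.89 to 32.3 ± 2.8 RPKM (-0.98). Met fell from an already low 0.644 ± 0.14 to 0.107 ± 0.0259 RPKM (-2.72). Pdgfra, the PDGF receptor of OPCs, was not called, with 82.0 ± 11.5 RPKM in siNC and 97.5 ± 20.9 RPKM after KD.

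The genes of proteins that Sprouty and Spred work with, and those of nuclear ERK substrates and repressors, moved as follows. Of the 10 partner genes of Sprouty and Spred, 9 were tested. Among these, 1 was called higher and 4 lower, against 13.8% and 17.2% of all tested genes. Cblb, a relative of Cbl, was not called, and neither were Rasa1, Siah2 and Dyrk1a. Nf1 fell from 16.6 ± 0.615 to 13.3 ± 0.567 RPKM (log2 fold change -0.48, FDR 0.00409), and Cbl, a ubiquitin ligase that binds Sprouty, fell from 14.2 ± 2.08 to 9.37 ± 1.64 RPKM (-0.75, FDR 0.00774). The receptor gene Kit, whose product binds Spred proteins, rose from 6.19 ± 0.535 to 20.8 ± 1.75 RPKM (1.59, FDR 0.000348). Capicua's gene Cic fell from 42.0 ± 2.6 to 30.6 ± 1.82 RPKM (-0.61, FDR 0.00292), and Atxn1l, which encodes a partner that keeps Capicua stable, fell from 12.5 ± 0.863 to 8.95 ± 0.853 RPKM (-0.64, FDR 0.00213), all from edgeR's quasi-likelihood test. Ets2 rose from 7.91 ± 1.35 to 15.1 ± 0.951 RPKM (0.78). Of the 14 nuclear substrates and repressors, 2 were called higher and 5 lower, against 13.8% and 17.2% of all tested genes. The part of these changes in the levels of the feedback genes was not tested.

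Markers of cell state moved in the same comparison, in which 13.8% of all tested genes were called higher and 17.2% lower. Of the 10 mature oligodendrocyte markers, 8 were called lower, and their summed level was 3367 to 5918 RPKM in siNC and 1412 to 2146 RPKM in siQk. Of 14 cell cycle genes, 11 were called higher, with sums of 94.6 to 112 RPKM in siNC and 164 to 288 RPKM in siQk. Of the 10 OPC markers, 3 were called higher, among them Olig2 (log2 fold change 0.69), and Lhfpl3 lower (-1.07), with sums of 1111 to 1184 RPKM in siNC and 1318 to 1471 RPKM in siQk. Of the 8 astrocyte markers, 7 were tested, 4 were called lower and 0 higher, with sums of 183 to 263 and 136 to 157 RPKM. Gfap fell from 69.1 ± 27.9 to 9.85 ± 1.26 RPKM (log2 fold change -2.95) and Slc1a3 from 25.5 ± 3.03 to 10.9 ± 0.913 RPKM (-1.38). Aldoc, at 94.9 ± 10.9 RPKM in siNC, was not called, and Gja1 did not exceed 0.013 RPKM. Of the 9 neuron markers, 7 were tested and 2, Snap25 and Nefl, were called higher, with overlapping sums of 137 to 205 and 104 to 152 RPKM. Tubb3 and Elavl3, at 123 ± 37.2 and 34.3 ± 9.11 RPKM in siNC, were not called, and Slc17a6 was listed at 0 in every library. The 8 microglia markers summed to 3.32 RPKM at most, with C1qa and C1qb at 0, and P2ry12, the only one tested, was called lower. The part of these shifts in the levels of the feedback genes was not tested.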

How the data were processed

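The authors sequenced poly-A RNA as paired-end reads, mapped them to mm10 (OLego) and counted tags per gene (Quantas). Per the file headers, the authors deposited for each library an estimated count (tag number) per gene, the exon length and the RPKM. Versions and annotation are not given in the sources used here. The 10 genes and all gene lists were chosen with earlier results of these data known. Estimated counts were rounded and tested with edgeR 4.0.16 (limma 3.58.1, R 4.3.3), quasi-likelihood test with the group as only term, on genes with an average logCPM over 0, with TMM factors (0.899 to 0.987 in siNC, 1.04 to 1.07 in siQk). Calls needed P below 0.01 and Benjamini-Hochberg FDR below 0.1. The SE of a log2 fold change is its size over the square root of F. The step was checked on simulated data. Between replicates, chi-square per degree of freedom was 38.0 or more, so that each library counts once. The exact permutation test of 1 value over 3 and 3 libraries (two-sided) has 0.1 as its smallest p, and none is printed. Alternatives were DESeq2 1.42.0, limma-voom, the likelihood ratio test, other scalings and filters, the replicate block, each library left out, and, chosen after seeing the data, thinning to the smallest library and leaving out Rn45s. Named were the 10 genes, Qk, members of the lists, and by rule the 3 genes most like the called gene of lowest P in each direction. Hras and Myrf were matched by Entrez identifier. Some genes of the lists are counted but not reported here by name.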

Additional observations from a re-analysis of the deposited data

How the results depend on the processing

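Spry1 and Spry4 kept their direction and call under the 17 other fits. Leaving out 1 library left 2 to 4 of the 10 genes called higher (2 without siQk replicate 1, 2 or 3, where Dusp6 and Etv5 fell out) and 0 to 1 called lower. Spred1, the gene called lower, was not called (0 lower) with library size only, with upper quartile factors or with the replicate block. With a stricter limit (FDR below 0.05 and a change of 1 or more on the log2 scale), 1 of the 10 genes was higher (Spry4) and 0 were lower, with 326 and 620 of all tested genes. With library size only, 2989 tested genes were called higher and 1365 lower, against 1730 and 2149, and with 1 library left out 1008 to 1610 were higher. Uncalled genes changed sign: Spry2 to 0.055 with library size only, and with 1 library left out Spred2 ranged from -0.013 to 0.13, Dusp1 from -0.039 to 0.19 and Etv4 from -0.17 to 0.65. The cause of these shifts between fits was not tested.

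Replicate numbers gave no pairing, since the correlations of deviations between libraries of 1 number were -0.053, -0.15 and -0.34. With the replicate block, 4 of the 10 genes were called higher and 0 lower, Spry4 at 1.201 and Spred1 at -0.35. Rescaling RPKM by TMM factors moved 7 of 20 group means by more than 1 SD. Thinning to the smallest library left 4 higher and 1 lower. Depth limits Dusp4 most, with 77 to 213 tags per library.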
